A study of Mus musculus with 24 samples.

Results

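Open chromatin at the start sites of long noncoding RNA genes was described in macrophages grown from mouse bone marrow. The assay was ATAC-seq, where a transposase (Tn5) tags DNA that is accessible. Overlapping peaks were collapsed within each deposited list, lists under 5000 peaks were dropped, and the remaining 22 lists were merged where peaks shared at least 1 bp. Of the 147816 merged regions, 2635 had their centre within 1 kb of a transcription start site (TSS) of a noncoding gene and over 1 kb from every protein-coding TSS. They are called noncoding start regions here. Noncoding genes were those that GENCODE annotates as lincRNA (1494 regions), antisense (773), processed transcript (358) or bidirectional (10). For comparison, 25614 regions lay within 1 kb of a coding TSS and 119567 lay away from both kinds of start and are called distal.

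All donors of marrow were male, at postnatal day 28. The study used C57BL6/J mice (animals 1, 4, 6 and 7) and BTBR mice of the strain BTBR T+ Itpr3tf/J (animals 2, 3, 5 and 8), and each animal gave 3 cultures and 3 libraries. The media cultures received no lipopolysaccharide (LPS, the endotoxin of Gram-negative bacteria). The LPSx1 cultures received 100 ng/ml LPS once, for 24 h. The LPSx2 cultures received 100 ng/ml for 4 h, then a wash and a rest in plain medium, then 100 ng/ml for 24 h. After 2 lists of animal 6 (media and LPSx2) were dropped there were 7 media, 8 LPSx1 and 7 LPSx2 libraries, of which 12 were BTBR and 10 C57BL6/J. The replicate number in the labels was taken as the animal, and p-values measure only the spread between these samples. Cultures were bulk samples, so fewer cells with an open site and a lower signal per cell cannot be told apart.

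Long noncoding RNAs are transcribed by RNA polymerase II and, like messenger RNAs, start in stretches of open chromatin. Their starts range from CpG-rich promoters that resemble those of coding genes to CpG-poor sites that resemble enhancers, which bind lineage factors such as PU.1 and C/EBP and signal-dependent factors such as AP-1. In macrophages, LPS is sensed by TLR4, and several noncoding RNAs are known to respond to it or to tune the response, among them the host transcript of miR-155.

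The 7 windows below are the noncoding start regions with the smallest adjusted p for LPSx1 against media (3 higher, 2 lower) and for BTBR against C57BL6/J (1 in each direction). Each is the stretch around the region's centre as wide as 1 called peak, written 5′ to 3′ on the plus strand of the GRCm38.p6 reference (mm10), which is the C57BL6/J sequence. Capitals mark matches on either strand to AP-1 (TGANTCA), C/EBP (TTGCNNAA), PU.1 (GAGGAAGT), SP/KLF (GGGCGG) or the cyclic AMP element (CRE, TGACGTCA).
Gm34643, chr14:103012639-103012839: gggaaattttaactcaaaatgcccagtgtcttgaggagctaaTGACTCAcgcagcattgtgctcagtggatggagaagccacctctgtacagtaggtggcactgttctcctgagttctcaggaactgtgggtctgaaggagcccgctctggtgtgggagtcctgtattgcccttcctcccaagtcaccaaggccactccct
3830432H09Rik, chr1:119534425-119534625: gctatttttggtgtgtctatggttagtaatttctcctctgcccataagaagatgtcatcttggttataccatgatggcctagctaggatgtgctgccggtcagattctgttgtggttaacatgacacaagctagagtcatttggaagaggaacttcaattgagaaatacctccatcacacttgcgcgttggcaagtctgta
4930580E04Rik, chr5:23387027-23387227: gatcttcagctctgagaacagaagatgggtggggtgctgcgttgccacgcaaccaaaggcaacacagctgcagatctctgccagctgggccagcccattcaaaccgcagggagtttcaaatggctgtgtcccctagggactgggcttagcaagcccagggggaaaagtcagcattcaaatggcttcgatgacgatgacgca
Neat1, chr19:5845380-5845580: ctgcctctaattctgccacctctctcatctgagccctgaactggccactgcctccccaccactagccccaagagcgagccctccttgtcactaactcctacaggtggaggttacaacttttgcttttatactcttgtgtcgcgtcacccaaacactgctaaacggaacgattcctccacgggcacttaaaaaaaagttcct
2310002F09Rik, chr7:43747888-43748088: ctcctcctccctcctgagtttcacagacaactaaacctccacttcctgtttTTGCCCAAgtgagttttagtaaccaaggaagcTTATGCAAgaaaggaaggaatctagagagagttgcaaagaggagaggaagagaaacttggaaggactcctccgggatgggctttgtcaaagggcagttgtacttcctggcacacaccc
Gm47015, chr10:79417191-79417391: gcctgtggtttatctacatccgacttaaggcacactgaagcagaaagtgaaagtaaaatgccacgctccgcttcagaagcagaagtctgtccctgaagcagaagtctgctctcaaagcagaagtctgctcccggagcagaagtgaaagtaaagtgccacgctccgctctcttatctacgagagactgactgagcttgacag
5830454E08Rik, chr9:120577184-120577384: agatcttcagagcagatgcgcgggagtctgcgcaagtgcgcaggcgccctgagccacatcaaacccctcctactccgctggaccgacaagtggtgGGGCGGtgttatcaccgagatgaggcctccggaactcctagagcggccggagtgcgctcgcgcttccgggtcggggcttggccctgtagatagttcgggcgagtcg
The Gm34643 window holds 1 AP-1 match, at chr14:103012681-103012687, and the 2310002F09Rik window holds 2 C/EBP matches. The 5830454E08Rik window holds 1 SP/KLF match, and the other windows hold none of these 5 motifs. Of all 25405 tested windows, 20.0% hold AP-1, 12.3% C/EBP, 9.25% PU.1, 29.7% SP/KLF and 1.69% CRE. A match describes letters only.

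The noncoding start regions belonged to 1780 of 9775 annotated noncoding genes. Of these genes, 603 had at least 2 regions, and 2310001H17Rik had the most, 9. Most regions, 1859, lay outside coding genes, while 637 lay in an intron and 139 in an exon of a coding gene. Their centres lay upstream of the noncoding TSS in 1506 cases and downstream in 1126. The 250 bp nearest the TSS held 1065 of them, and 202 lay between 900 and 1000 bp, just inside the limit, against 178 otherwise eligible regions between 1000 and 1100 bp. The coding rule removed 2413 of the 5048 regions near a noncoding TSS, and 289 members lay only 1000 to 2000 bp from a coding TSS. Where a noncoding gene lies beside or inside another gene, an open region may serve either, and its gene is uncertain.

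Depth was known only through the number of peaks, because the lists carry no read counts. Kept lists held 11349 to 127242 collapsed peaks, all of the same width. Within each of the 4 sequencing lanes, every list was therefore limited to its strongest peaks, down to the length of the lane's shortest list (11349, 22037, 16045 and 13957 peaks in lanes 1 to 4). Each lane held 1 animal of each strain with all its treatments, although lane 3 lost the media and LPSx2 lists of animal 6. Kept libraries had 6 to 8 additional PCR cycles in lanes 1 and 2 and 10 to 13 in lanes 3 and 4. Lane and amplification therefore cannot be told apart. Macrophage markers had a peak at their start in 15 to 22 of the 22 whole lists (10 of 10 genes, Spi1 in 22 and Csf1r in 18). Of 5 markers each, those of B cells were found in 0 to 7 lists, erythroid cells in 0 to 2 and stromal cells in 0 to 4. T and NK cell markers were found in 0 to 16 (Il7r 16, Cd3d 12, Cd3e, Cd8a and Ncr1 at 0), neutrophil markers in 0 to 21 (S100a8 21, Ly6g, Elane, Mpo and Cxcr2 at 0) and dendritic cell markers in 0 to 16 (Zbtb46 16, Flt3, Xcr1 and Clec9a at 0).

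Noncoding starts took an almost constant part of the strongest peaks in every treatment. In media their share of the limited list was 2.09% ± 0.0758 (SD, n = 7, range 1.95 to 2.16). It was 2.03% ± 0.0903 after LPSx1 (n = 8, range 1.92 to 2.18) and 2.05% ± 0.0532 after LPSx2 (n = 7, range 2.00 to 2.15). The ranges overlapped. Against its own media library, the share was lower after LPSx1 in 5 of 7 animals and after LPSx2 in 4 of 7. BTBR libraries had a share of 2.06% ± 0.0866 (n = 12) and C57BL6/J libraries of 2.05% ± 0.0633 (n = 10). Over the same lists the share at coding starts was 51.3% ± 10.3 in media, 42.6% ± 6.88 after LPSx1 and 40.0% ± 5.52 after LPSx2, while distal regions took 43.5% ± 10.6, 53.2% ± 7.06 and 55.5% ± 5.13. In whole lists, which differed in length, the noncoding share was 2.12% ± 0.0997 in media, 1.96% ± 0.0891 after LPSx1 and 1.97% ± 0.0909 after LPSx2. The near constancy thus holds for the limited lists. All these shares were described and not tested.

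**Figure D1:**
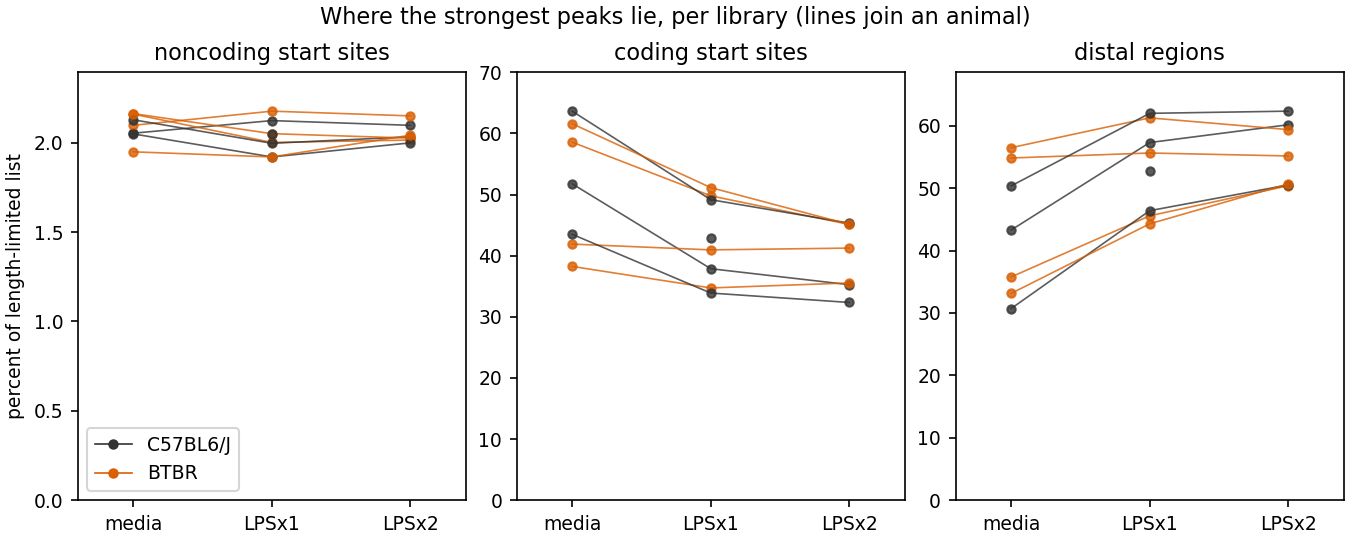
Percent of each length-limited list that lay at noncoding starts, coding starts and distal regions (y axes, each from 0 and on its own scale), by treatment. Points are libraries and lines join the libraries of 1 animal, and the noncoding share lay between 1.92% and 2.18% in all 22 libraries.

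Most noncoding start regions were rare or weak. In whole lists 646 of the 2635 were found in a single library and 104 in every library. In limited lists 1715 were absent from every library, 920 were present in at least 1, and 511 (at 459 genes) were present in at least 4 and were tested. The filter on rare regions therefore kept 19.4% of the members, and the counts below do not speak for the others. The value tested was the score percentile, the rank of a region's strongest peak within the limited list, from 100 for the strongest peak to 0 where the region had no peak. It is a relative rank and not a total accessibility.

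A set of noncoding starts was open in every library whatever the treatment. There were 68 members in all 22 limited lists, and the 10 with the highest mean percentile were 4932412D23Rik, Gm26901, 1700096K18Rik, Gm6410, 1700028E10Rik, Dancr, BC002059, Gm10010, Gm32250 and Kif16bos. The region 67 bp upstream of the 4932412D23Rik start (chr16:42875387-42875921, outside coding genes) ranked between 98.7 and 99.9 in all 22 libraries. Gm26901 ranked between 95.6 and 99.6. Dancr, a host of small nucleolar RNA that is known for keeping progenitors undifferentiated, ranked between 74.9 and 99.5, and its lowest value was the media library of animal 7.

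LPSx1 against media asked which starts opened or closed after a single exposure. Of the 511 tested members, 49 were higher (9.59%) and 48 were lower (9.39%) at a Benjamini-Hochberg adjusted p under 0.05 in limma over all 25405 regions. Over all regions tested, 8.8% were higher and 9.78% were lower, so the members' shares were near the background and are not a result about noncoding starts. Their balance lay between those of the other classes: 2.55% of coding starts were higher and 14.9% lower, against 13.0% and 6.28% of distal regions. The median difference was 0.60 percentile points over the tested members and 0.46 over all regions, against -6.72 at coding starts and 5.37 at distal regions. With whole lists in place of limited ones, 1199 members could be tested and the split was 59 higher and 3 lower (4.92% and 0.25%), against 5.44% and 0.21% of all regions in that fit. Without animal 4 it was 37 and 18 (8.1% and 3.94%), against 6.35% and 5.71%. Judged animal by animal, 12 members were gained and 8 lost after LPSx1 (against 3.29% and 2.07% of all regions, the members' shares being 2.35% and 1.57%). A gain is a peak that the media list lacks and the LPS list has in at least 5 animals, with no animal the other way. The mean percentile over the 22 libraries had a median of 48.4 in the higher members (quartiles 33.8 and 61.8), 20.7 in the lower ones (8.99 and 40.6) and 19.3 in those that did not pass, a mean that includes the libraries compared. The plot of differences by mean percentile shows these levels.

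A region had to be in at least 4 limited lists to be tested, and some members met this only through the side on which they were high. Of the 49 higher and 48 lower members, 10 were at 0 in every media library and 5 were at 0 in every LPS library. For LPSx2 these were 16 of 70 and 5 of 53. Between strains, 1 of 10 members higher in BTBR and 4 of 20 lower were at 0 in every library of the other strain. Such members had to differ once they passed the filter, so their p-values are no independent support. Members with few lists on the low side also needed the high side to reach 4 lists, and they are not in these counts. Among them were Gm34643 (1 limited media list), and Gm15591 and the downstream region of Gm11613 (2 each). Between strains, A430073D23Rik was such a member. The filter favours a difference at these too.

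**Figure D2:**
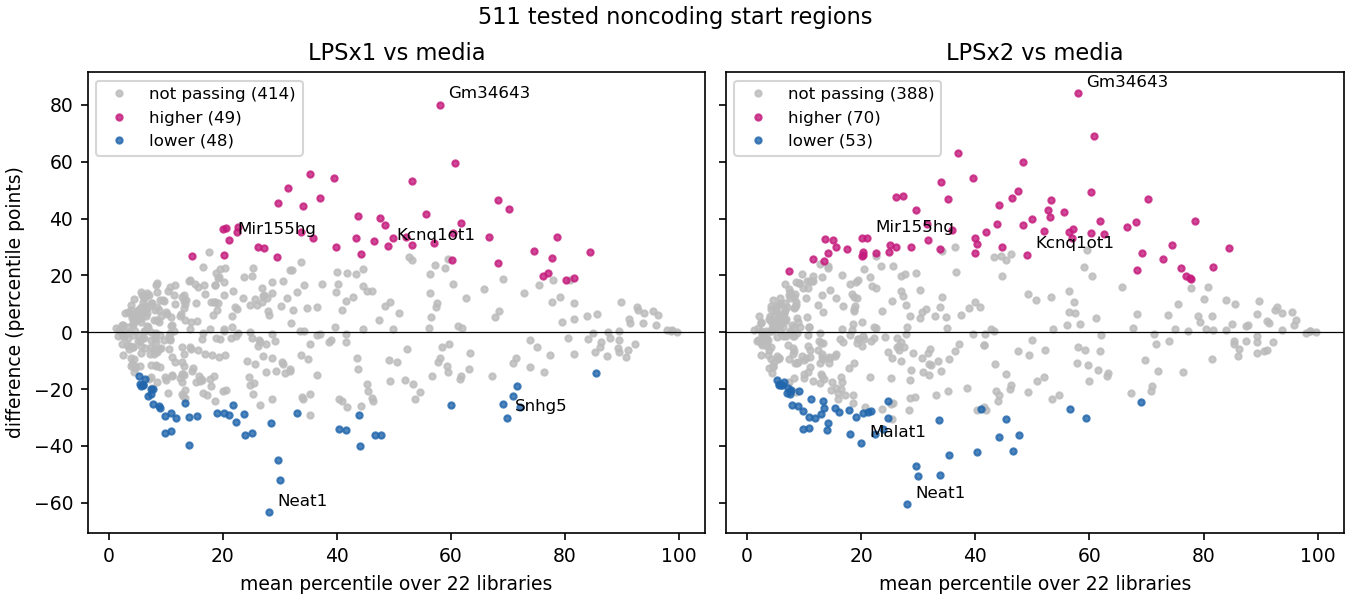
Difference from media in percentile points (y axis) against the mean percentile over 22 libraries (x axis) for the 511 tested noncoding start regions, LPSx1 on the left and LPSx2 on the right. Points are regions, coloured by call: 49 higher and 48 lower after LPSx1, 70 higher and 53 lower after LPSx2.

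The Gm34643 start, whose AP-1-bearing window is printed above, had the smallest adjusted p among the rises. It is a lincRNA gene on the plus strand (ENSMUSG00000115855.1), and the region (chr14:103012613-103012865) lies 169 bp upstream of its start and outside coding genes, 30102 bp from the nearest coding start, Kctd12. Its percentile in media was 0 at the lowest, 0 at the median and 14.7 at the highest, the single media library above 0 being that of C57BL6/J animal 4. After LPSx1 it ran from 54.6 through a median of 85.1 to 95.1, and after LPSx2 from 71.7 through 90.4 to 92.7. No library of either LPS group overlapped the media range, in either strain. In whole lists, however, Gm34643 had a peak in 5 of 7 media and in all 15 LPS libraries. The difference was 80.1 points (SE 7.82, limma adjusted p = 3.8e-09) for LPSx1 and 84.1 (SE 8.03, adjusted p = 3.3e-09) for LPSx2, and it was higher in 7 of 7 animals each time. With 1 limited media list, the region reached 4 lists only with LPS libraries, so these p-values are no independent support.

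Other starts were also separate from media after LPSx1. The 5930403N24Rik region (chr10:37141648-37141943, ENSMUSG00000046463.5, a processed transcript 2875 bp from the start of Marcks, an actin-binding signalling substrate) was at 0 in all 7 media libraries, although 1 of 7 whole media lists held it. It ran from 32.8 through 55.4 to 84.9 after LPSx1 and from 19 through 47.5 to 79.0 after LPSx2. Neither LPS group overlapped media, with differences of 55.8 (SE 9.73, limma adjusted p = 0.00011) and 46.8 (SE 10.0, adjusted p = 0.0012). This region passed the filter only through LPS libraries, so these p-values are no independent support. Gm15591, an antisense gene within an exon of Abhd10, ran from 0 to 12.9 in media, from 27 to 82.2 after LPSx1 and from 0 to 82.7 after LPSx2, so only LPSx1 was separate from media. The 2310044K18Rik region lies in an intron of Il16, which encodes a chemotactic cytokine, and ran from 0 to 44.4 in media, from 46.0 to 89.9 after LPSx1 (difference 53.3, SE 10.3, limma adjusted p = 0.00041) and from 0 to 90.4 after LPSx2. LPSx1 did not overlap media there, and LPSx2 did.

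Further members were present in limited media lists and ranked higher after LPS. The 3830432H09Rik region (chr1:119534386-119534664, ENSMUSG00000101731.1, lincRNA, 720 bp downstream of the start) ran from 3.68 through 50.1 to 70.6 in media, from 78.5 through 84.2 to 92.8 after LPSx1 and from 41.4 through 82.9 to 94.3 after LPSx2. The LPSx1 libraries were all above the media ones, and the LPSx2 range overlapped it. The differences were 46.4 (SE 7.52, limma adjusted p = 4.3e-05) and 38.6 (SE 7.73, adjusted p = 0.00063). At 4930580E04Rik (chr5:23386955-23387300, ENSMUSG00000106269.1, lincRNA, 18 bp downstream) the percentile was 0, 16.1 and 56.8 (lowest, median, highest) in media, 6.52, 86.3 and 92.9 after LPSx1, and 71.3, 82.8 and 97.8 after LPSx2, with 4 of 7 media libraries above 0. Only the LPSx1 library of BTBR animal 8 fell within the media range. Differences there were 59.7 (SE 9.70, limma adjusted p = 4.3e-05) and 69.1 (SE 9.97, adjusted p = 7e-06). Gm1976, Gm6634, Gm49156 and the downstream region of Gm11613 completed the 10 named rises for LPSx1, with differences from 33.6 to 50.8. Of these, Gm1976 was above 0 in all 7 media libraries and Gm6634 in 6, the Gm11613 region was in 2 (highest 6.97), and Gm49156 was in 0 limited and 3 whole media lists. Gm49156 thus passed the filter only through LPS libraries.

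In all, 5 members were higher after LPSx1 with no overlap between the groups (Gm34643, 5930403N24Rik, 3830432H09Rik, Gm15591 and 2310044K18Rik), and 1 was lower without overlap, 2310002F09Rik. These are 0.978% and 0.196% of the 511 tested, against 0.992% and 0.386% of all regions, so the shares were near or below the background.

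**Figure D3:**
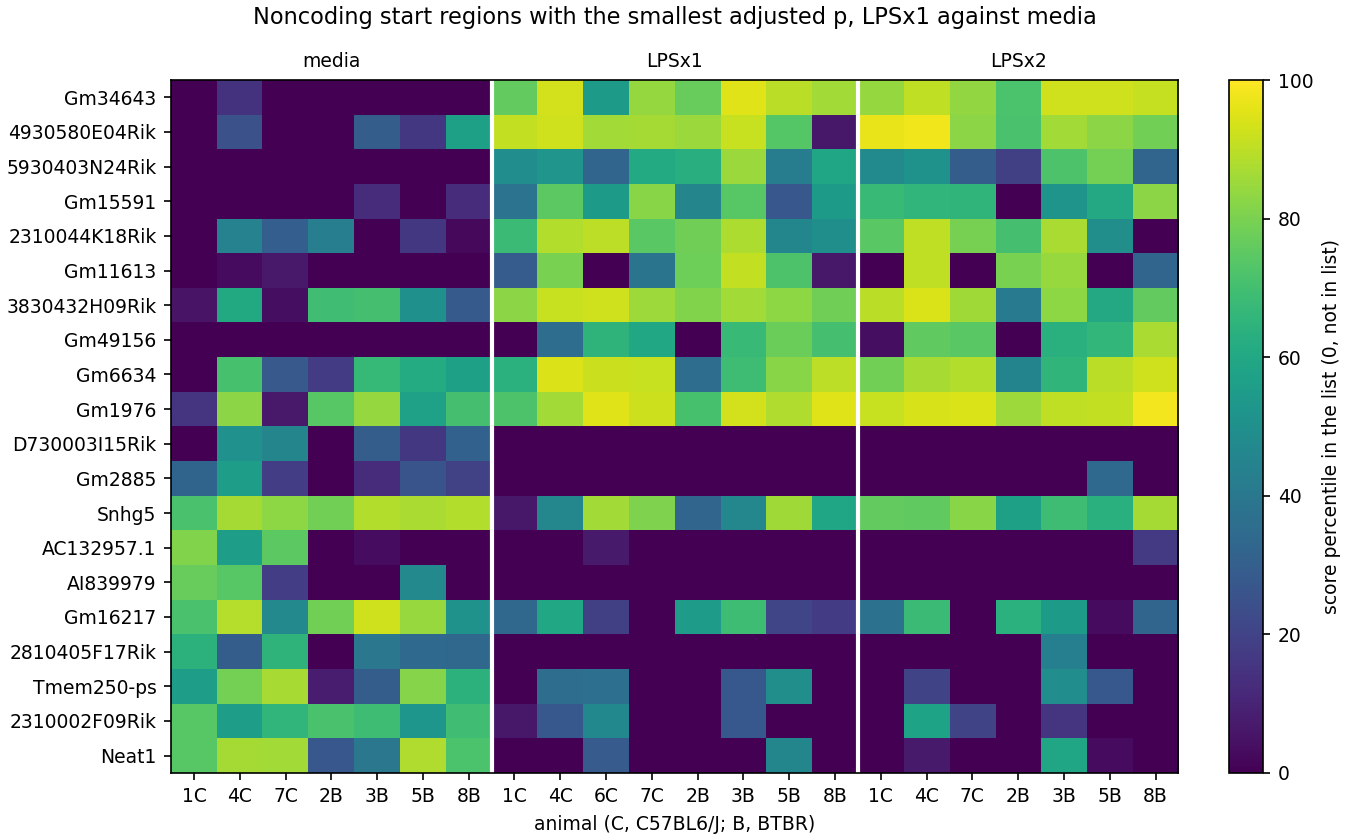
Score percentile (colour, 0 where the region is not in the list) of the 20 noncoding start regions with the smallest adjusted p for LPSx1 against media (rows, 10 in each direction) in each of 22 libraries (columns, by treatment and animal). Gm34643 is at 0 in 6 of 7 media libraries and above 50 in every LPS library, and Neat1 shows the opposite pattern with 2 LPSx1 libraries above 0.

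Neat1 had the clearest loss. Its RNA is the scaffold of paraspeckles, nuclear bodies that hold back RNA-binding proteins and edited RNAs. The region (chr19:5845212-5845749, ENSMUSG00000092274.3, lincRNA on the minus strand) is centred 2 bp upstream of the start and lies outside coding genes. In media its percentile was 27.2 at the lowest, 74.0 at the median and 88.1 at the highest. After LPSx1 the values were 0, 0 and 46.0, and after LPSx2 0, 0 and 59.2. Most LPS libraries were at 0, and those of animals 5 and 6 (LPSx1) and 3 (LPSx2) reached the media range. The difference was -63.2 (SE 10.0, limma adjusted p = 3.2e-05, lower in 7 of 7 animals) for LPSx1 and -60.4 (SE 10.3, adjusted p = 9e-05, lower in 6 of 7) for LPSx2. In whole lists, however, Neat1 had a peak in 7 of 7 media, 7 of 8 LPSx1 and 6 of 7 LPSx2 libraries.

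The 2310002F09Rik region (chr7:43747809-43748167, ENSMUSG00000097178.7, processed transcript), printed above with its C/EBP matches, ran from 52.7 through 68.8 to 74.0 in media. It ran from 0 through 3.30 to 46.5 after LPSx1 and from 0 through 0 to 57.8 after LPSx2. The LPSx1 libraries were all below media, and 1 LPSx2 library, that of animal 4, was not. The LPSx1 difference was -52.1 (SE 9.48, limma adjusted p = 0.0002) and the LPSx2 difference was -50.5 (adjusted p = 0.00041). Further named losses after LPSx1 were Tmem250-ps (-45.1, limma adjusted p = 0.0012), 2810405F17Rik (-39.8), Gm16217 in an intron of Lrp1 (-36.1), AI839979 (-35.5, in exactly 4 limited lists, all of them media, and not testable without animal 1, 4, 5 or 7), AC132957.1 (-34.9), Snhg5 (-30.1), Gm2885 (-26.5) and D730003I15Rik (-25.4). AI839979 and D730003I15Rik passed the filter only through media, where they were high. AC132957.1 was high only in C57BL6/J media libraries.

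LPSx2 against media was tested on the same media libraries, so the comparisons are not independent and are given side by side. Here 70 of 511 members were higher (13.7%) and 53 were lower (10.4%), against 10.1% and 11.6% of all regions tested. The share of higher calls was above that of all regions but lay between the other classes, with 2.71% of coding starts and 15% of distal regions higher. Lower calls took 19.1% of coding starts and 6.48% of distal regions. No test of the members' difference from the background was made. With whole lists the split was 55 higher and 4 lower (4.59% and 0.334%, against 4.61% and 0.37% of all regions in that fit). Without animal 4 it was 43 and 20 (9.41% and 4.38%, against 6.77% and 6.24%), and without animal 7 it was 50 and 30 (9.94% and 5.96%, against 8.42% and 7.49%). The members' median difference was 0.60 points, against 0.13 over all regions. Named members that passed for LPSx2 and were not among the 10 for LPSx1 were 4930471E19Rik (59.8, limma adjusted p = 2.8e-05), 5430425K12Rik (63.1, adjusted p = 0.00028, at 0 in every media library but held by 1 of 7 whole media lists) and a region of Gm41442 (49.2, adjusted p = 0.00022) among the rises, and Malat1 and Gm15564 among the losses. The 5430425K12Rik region passed the filter only through LPS libraries. There were 9 members higher without overlap between LPSx2 and media (1.76% of those tested) and 0 lower, against 1.16% and 0.429% of all regions. Animal by animal, 10 were gained (1.96%) and 13 lost (2.54%), against 3.75% and 2.46% of all regions.

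LPSx2 against LPSx1 asked whether a second exposure left noncoding starts different from a single one. No member passed in limma, with 0 higher and 0 lower, and the background was 0% in both directions over 25405 regions. At an unadjusted p under 0.05 there were 28 members (5.48%), against 5.42% of all regions. The 3 members with the smallest unadjusted p in each direction, none of which passed, were Gm47467, Gm43573 and Mypopos (higher) and Gm15564, Gm13481 and 2900076A07Rik (lower). Mypopos, antisense within an exon of Mypop, was at 0 in all media libraries, reached 6.25 in 1 LPSx1 library and was at 59.2, 51.4 and 45.0 in the LPSx2 libraries of animals 3, 4 and 5, the other 4 being at 0. Judged animal by animal, 0 members were gained and 0 lost between LPSx1 and LPSx2, against 0.0512% and 0.0472% of all regions.

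The immune list held 20 noncoding genes known in macrophages or inflammation, of which 15 had a start region. Of its 45 regions 12 were tested. After LPSx1, 1 was higher (Mir155hg) and 2 were lower (Neat1 and Mirt1). After LPSx2, 1 was higher (Mir155hg) and 4 were lower (Neat1, Malat1, Mir142hg and Mirt1). The shares called over all regions were 8.8% higher and 9.78% lower for LPSx1 and 10.1% and 11.6% for LPSx2, which is the background for this and the following lists. The list's median difference was -11.2 points for LPSx1 and -12.0 for LPSx2, against 0.46 and 0.13 over all regions.

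Mir155hg, the host transcript of the LPS-induced microRNA miR-155, had a region 305 bp downstream of its start (chr16:84713134-84713522, ENSMUSG00000097418.7, lincRNA). It was at 0 in all 7 media libraries and was absent from all 7 whole media lists, so it passed the filter only through LPS libraries. After LPSx1 it ran from 0 through 27.5 to 70.4 and after LPSx2 from 0 through 29.6 to 78.5. Whole lists had it in 7 of 8 LPSx1 and 6 of 7 LPSx2 libraries. Some LPS libraries thus overlapped media at 0, in both strains' animals 5, 7 and 8. The differences of 32.4 (SE 9.60, limma adjusted p = 0.017) and 33.0 (SE 9.86, adjusted p = 0.016) did not hold for every set of animals. LPSx1 did not pass without animal 1 (limma adjusted p = 0.057), 3 (0.085) or 4 (0.12), and LPSx2 did not without animal 3 (0.053) or 4 (0.11).

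Malat1 encodes an abundant nuclear RNA next to Neat1. Its tested region (chr19:5803426-5803862, ENSMUSG00000092341.3) is 972 bp upstream of the start and just inside the limit. It ran from 0 through 39.3 to 80.6 in media, from 0 through 19.4 to 65.1 after LPSx1 and from 0 through 0 to 10.5 after LPSx2. The groups overlapped, and 1 LPSx2 library, that of animal 5, was above 0. The difference was -39.0 after LPSx2 (SE 9.12, limma adjusted p = 0.0027) and -20.5 after LPSx1, which did not pass (adjusted p = 0.098). In C57BL6/J the Malat1 means were 62.4 in media, 9.71 after LPSx1 and 0 after LPSx2. In BTBR they were 18.2, 32.8 and 2.63, so the strains went opposite ways after LPSx1. The interaction did not pass at this region. Mir142hg, which hosts a microRNA of blood cells, had 62.5, 75 and 91.6 in media and 0, 53.6 and 84.2 after LPSx2, with a difference of -30.3 (limma adjusted p = 0.035). The call was lost without animal 1, 5, 7 or 8 (adjusted p of 0.098, 0.068, 0.17 and 0.17). Mirt1 was above 0 in 3 of 7 media libraries and 1 LPS library. It could not be tested without animal 3, 4 or 5, and the LPSx1 call was lost without animal 6 (limma adjusted p = 0.057). Members that did not pass in either comparison included Ptgs2os2 near the cyclooxygenase gene Ptgs2 (-16.6 and -13.2), both tested regions of Lncpint, Mir17hg (1.52 and 2.62) and all 3 tested regions of Mir22hg. At Ptgs2os2 the strains went opposite ways, which the pooled differences hide. Its means in media, LPSx1 and LPSx2 were 59.0, 65.5 and 74.1 in C57BL6/J and 86.3, 42.1 and 44.7 in BTBR. Its interaction did not pass.

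The list of small RNA hosts was drawn by symbol: Gas5, genes starting with Snhg, and genes starting with Mir and ending with hg. Drawn this way, it also held Snhg7os, whose symbol marks a transcript opposite to Snhg7 and not a host. The list comprised 17 genes with 36 regions, of which 12 were tested. After LPSx1, 1 was higher (Mir155hg) and 3 were lower (Snhg5, Snhg20 and Snhg7os). After LPSx2, 1 was higher (Mir155hg) and 3 were lower (Mir142hg, Snhg15 and Snhg20). Over all regions 8.8% and 10.1% were higher and 9.78% and 11.6% lower. The list's medians were -7.23 and -8.90 points, against 0.46 and 0.13 over all regions. Snhg5 (chr9:88522859-88523386) had 71.1, 86.4 and 88.6 in media, 6.59, 52.5 and 86.2 after LPSx1 and 56.7, 75.5 and 86.6 after LPSx2. It was lower after LPSx1 in 7 of 7 animals (-30.1, SE 7.51, limma adjusted p = 0.0051), although the ranges overlapped, and its LPSx2 difference of -9.61 did not pass (adjusted p = 0.38). Snhg15 was above 0 in 6 of 7 media libraries and at 0 in all 7 LPSx2 libraries (3 of 7 in whole lists, -35.7, SE 9.98, limma adjusted p = 0.011), and it did not pass without animal 4 (0.059) or 7 (0.053). Snhg20 and Snhg7os were low members, with at most 43.3 in media, and each lost its LPSx1 call without any 1 of 4 animals (4, 5, 7 and 8, or 3, 4, 7 and 8, highest limma adjusted p 0.09 and 0.14).

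Opposite-strand genes, named for the coding gene they overlap or abut, comprised 51 genes with 82 regions, of which 17 were tested. Zfp335os was higher and Rab10os and Zmiz1os1 were lower after LPSx1. Mypopos was higher and Rab10os and Zmiz1os1 were lower after LPSx2. The medians were -1.15 and -4.37 points, against the same 0.46 and 0.13. Rab10os lost its LPSx1 call without animal 1, 4 or 8 (limma adjusted p of 0.14, 0.12 and 0.091) and its LPSx2 call without animal 1 (0.14). Zfp335os passed in only 2 of the 8 fits without 1 animal (highest limma adjusted p 0.19, without animal 1), and Mypopos and Zmiz1os1, each above 0 in 4 lists and only on the side where it was high, could not be tested without the animals that carried them. The Il1bos region, 2309 bp from the start of the cytokine gene Il1b, had 49.4, 57.8 and 79.7 in media, 0, 22.3 and 90.1 after LPSx1 and 0, 35.2 and 92.0 after LPSx2, and its difference of -24.4 after LPSx1 did not pass (limma adjusted p = 0.11). The LPSx2 libraries of Il1bos split by lane: animals 1 to 4 had 35.2 to 92.0, and animals 5, 7 and 8 had 0. After LPSx1 no such split was seen, with Il1bos above 0 in 4 of 4 C57BL6/J and 3 of 4 BTBR libraries. Junos, antisense to the AP-1 gene Jun, did not pass either (10.7 and 13.3).

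Of 19 imprinted and developmental noncoding genes, 6 had 12 regions and 4 regions were tested. The list's median difference was -8.75 points for LPSx1 and -11.3 for LPSx2, against 0.46 and 0.13 over all regions. Kcnq1ot1, the imprinted antisense RNA that silences neighbouring genes on the paternal chromosome, was the only one to pass. Its region in an intron of Kcnq1 (chr7:143296427-143296816) had 0, 20.8 and 63.6 in media, 0, 70.7 and 83.1 after LPSx1 and 24.7, 58.5 and 83.8 after LPSx2. The ranges overlapped, and the differences were 30.3 (limma adjusted p = 0.022) and 27.3 (adjusted p = 0.04). The first was lost without animal 4 (0.084) or 7 (0.076), and the second without animal 1, 4, 5, 7 or 8 (0.052 to 0.15).

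Members were also grouped by their nearest coding gene. Next to 24 inflammatory mediators there were 9 members, 3 of them tested, and none passed. Next to 14 feedback regulators there were 8, 2 of them tested. AC122252.2, a lincRNA 5254 bp from Dusp1, which encodes a phosphatase that ends MAP kinase signalling, was lower after LPSx1 (-30.2, SE 7.77, limma adjusted p = 0.0064) and LPSx2 (-30.2, SE 7.99, adjusted p = 0.0072). Gm16174, in an intron of the NF-kB regulator Bcl3, was higher after LPSx2 (35.3, SE 10.5, limma adjusted p = 0.016), in 7 of 7 animals, but not without animal 4 (0.058). Next to 12 AP-1 genes there were 22 members, 4 of them tested. D730003I15Rik, 6507 bp from Atf3, had 0, 29.4 and 50.4 in media and was at 0 in all 15 LPS libraries (-25.4, limma adjusted p = 0.0057, and -25.5, adjusted p = 0.0063). It passed the filter only through its 5 media lists, and whole lists had it in 6 of 7 media, 4 of 8 LPSx1 and 2 of 7 LPSx2 libraries. Gm11175, 1745 bp from Jund, was lower in both (-16.4, limma adjusted p = 0.048, and -17.5, adjusted p = 0.036). Gm11175 passed in only 1 (LPSx1) and 3 (LPSx2) of the 8 fits without 1 animal. Both tested members near macrophage identity genes did not pass.

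Where the nearest coding gene also had a tested start region, calls at both were compared. Of the 49 members higher after LPSx1, 29 had such a coding start, of which 3 were higher (10.3%) and 0 lower. Of the 48 lower members, 30 had one, of which 0 were higher and 9 lower (30%). Over all tested coding starts, 2.55% were higher and 14.9% lower after LPSx1. After LPSx2 the counts were 4 higher (9.30%) and 2 lower (4.65%) of 43 beside higher members, and 0 higher and 12 lower (36.4%) of 33 beside lower members, against 2.71% and 19.1% of all coding starts. The differences from these shares were not tested. Regions of 1 noncoding gene could also part ways. At Gm11613, a region 761 bp downstream of the start was higher after LPSx1 (50.8, limma adjusted p = 0.0031) while the region 59 bp upstream was lower (-25.0, adjusted p = 0.042). The lower call held in only 1 of 8 fits without 1 animal. At Gm41442, a region 489 bp upstream of 1 start was higher after LPSx2 (49.2, limma adjusted p = 0.00022) and a region 594 bp downstream of another was lower (-43.2, adjusted p = 0.0071), the latter not without animal 1 (0.057) or 4 (0.063). These were the only such pairs among the 47 genes with at least 2 tested members.

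Sequence differed with the direction of the call. Over windows of 1 peak's width around the centre, the median ratio of observed to expected CpG was 0.275 in the 49 members higher after LPSx1, 0.625 in the 48 lower and 0.409 in those that did not pass. The median was 0.824 at all tested coding starts and 0.210 at distal regions. Median GC content was 51.2% in the higher and 62.2% in the lower members. The higher members were outside coding genes in 36 of 49 cases (73.5%) and the lower ones in 45 of 48 (93.8%). Median width was 305 bp against 400 bp. For LPSx2 the CpG medians were 0.328 in the higher and 0.522 in the lower members.

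There were 15 motifs searched on both strands. An AP-1 match (TGANTCA) was in 17 of 49 higher members (34.7%), 4 of 48 lower ones (8.33%) and 90 of 414 that did not pass (21.7%). Over all regions the shares were 47.7%, 7.89% and 18.4%, so the same ordering held over all regions. SP/KLF (GGGCGG) ran the other way, with 4 of 49 (8.16%) and 21 of 48 (43.8%), against 6.17% and 46.1% of all regions. C/EBP (TTGCNNAA) was in 8 of 49 (16.3%) and 2 of 48 (4.17%), against 17.6% and 8.29% of all regions. After LPSx2, AP-1 was in 25 of 70 higher members (35.7%) and 7 of 53 lower ones (13.2%), against 41.5% and 7.85% of all regions. The rest of the motifs were PU.1 (GAGGAAGT), CRE (TGACGTCA), YY1 (AAGATGGC), STAT (TTCCNGGAA), the E-box written CACGTG, the ETS core written as CCGGAAG, the NFY box, which reads CCAAT, and the TATA box, which reads TATAAA, besides NRF1, ISRE, NF-kB and CTCF. CpG-bearing motifs (SP/KLF, CRE, E-box, ETS and NRF1) move with CpG content, and these differences were described and not tested.

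**Figure D4:**
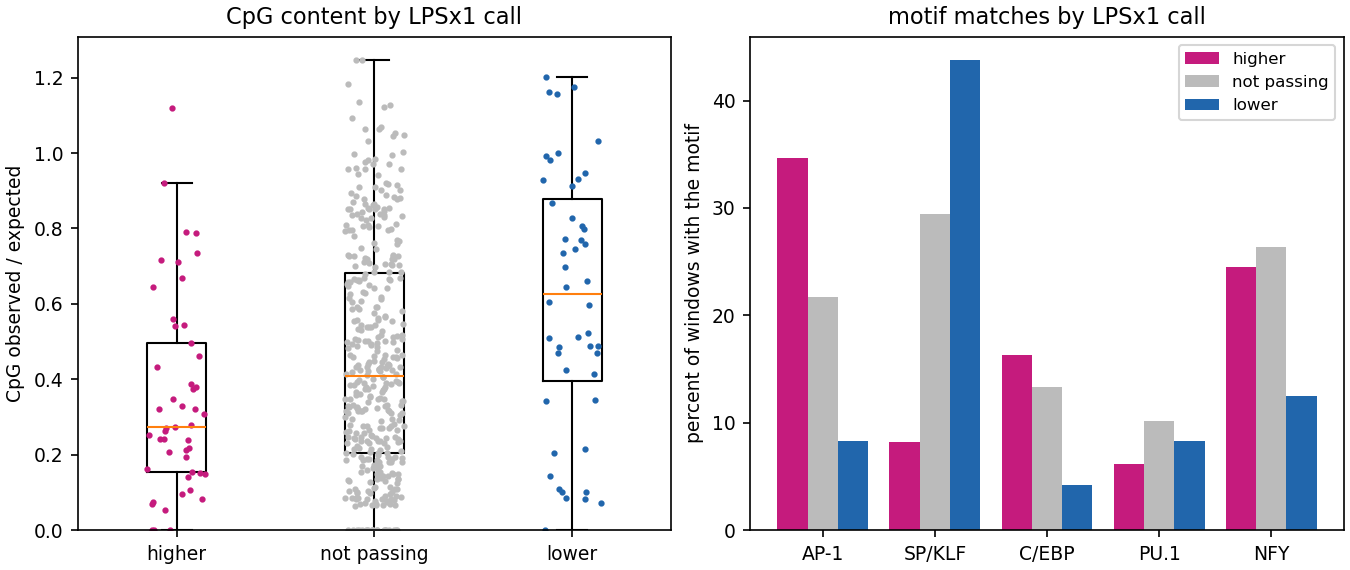
Left, ratio of observed to expected CpG (y axis) in the windows of tested noncoding start regions by LPSx1 call, with a point per region and boxes for the quartiles and the median. Right, percent of those windows with each of 5 motifs, where AP-1 is in 34.7% of higher and 8.33% of lower members and SP/KLF in 8.16% and 43.8%.

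BTBR against C57BL6/J asked whether the strains differed over all treatments. In limma with the animal as a random effect, 10 of 511 members were higher in BTBR (1.96%) and 20 were lower (3.91%), against 1.66% and 2.83% of all regions tested (4.5% in either direction). The consensus correlation was -0.0346, so the 3 libraries of an animal counted almost as independent samples. The strain p-values below thus rest on 22 libraries more than on 8 animals. No member separated the strains completely in either direction, against 0.0945% and 0.146% of all regions. Libraries of both strains were aligned to the C57BL6/J-based mm10 reference, so a difference in openness and a difference in sequence or alignment cannot be told apart. With 1 mean per animal in place of 3 libraries, 1 member passed, 5830454E08Rik (all regions 0.157% higher and 0.307% lower). With whole lists or without the lane term, 0 passed (all regions 0.0516% and 0.0258%, and 0.161% and 0.252%). The count was 19, 15 and 18 without animals 2, 3 and 4, and 52 and 47 without animals 7 and 8. Over all regions the shares in these fits were 1.31% and 2.2%, 0.832% and 1.82%, 0.836% and 2.01%, 3.35% and 4.11%, and 3% and 3.49%.

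The 5830454E08Rik region (chr9:120577126-120577443, ENSMUSG00000052658.5, lincRNA, 47 bp upstream of the start, 5840 bp from the ribosomal protein gene Rpl14) was lower in BTBR. It ran from 0 through 0 to 36.2 in the 12 BTBR libraries and from 3.77 through 65.9 to 86.7 in the 10 C57BL6/J libraries. The ranges overlapped, mainly through the LPSx2 library of C57BL6/J animal 1. The difference was -50.5 (SE 7.87, limma adjusted p = 3.5e-05). AC151410.1, antisense in an intron of Ttc27 (chr17:74819645-74820094), was at 0 in all 12 BTBR libraries and ran from 0 through 55.1 to 85.3 in C57BL6/J (-47.6, SE 7.77, limma adjusted p = 7.2e-05). Gm13274 was also at 0 in all 12 BTBR libraries and ran from 0 through 49.7 to 73.8 in C57BL6/J (-40.8, SE 7.03, limma adjusted p = 0.00017). Both passed the filter only through C57BL6/J, and whole lists of BTBR had AC151410.1 in 3 and Gm13274 in 0 of 12 libraries. In both, the C57BL6/J values at 0 were media libraries. Gm39228, 4116 bp from the metallothionein gene Mt1, had 0, 0 and 32.6 in BTBR and 0, 42.8 and 82.8 in C57BL6/J (-37.5, SE 7.23, limma adjusted p = 0.00081), but not without animal 3 (0.051). The other named members lower in BTBR were Gm5444, 2900076A07Rik, Gm12148, 4930555B11Rik, Gm15261 and Gm40375, with differences from -44.3 to -28.6, and each passed in 4 to 7 of the 8 fits without 1 animal.

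Gm47015 was the member most clearly higher in BTBR. Its region (chr10:79417130-79417452, ENSMUSG00000112907.1, lincRNA, 614 bp downstream of the start, outside coding genes) ran from 53.2 through 91.1 to 97.3 in BTBR and from 0 through 0.816 to 84.4 in C57BL6/J. All BTBR libraries were above 50, while C57BL6/J libraries split, with all 3 media libraries at 0 and the LPSx1 libraries of animals 6 and 7 and the LPSx2 libraries of animals 4 and 7 within the BTBR range. The difference was 54.4 (SE 8.54, limma adjusted p = 3.9e-05). A430073D23Rik had 0, 45.0 and 93.3 in BTBR and 0, 0 and 18.8 in C57BL6/J (40.3, SE 8.47, limma adjusted p = 0.0024), with all 3 libraries of BTBR animal 2 at 0, and did not pass without animal 4 (0.065) or 7 (0.053). BC023719 had 0, 61.3 and 96.0 in BTBR and 0, 0 and 44.4 in C57BL6/J (40.8, limma adjusted p = 0.004), with all 3 libraries of BTBR animal 8 at 0, and did not pass without animal 1, 2, 3 or 4 (0.064 to 0.18). A second region of 4932412D23Rik, 449 bp downstream of the start, was higher in BTBR by 31.3 (limma adjusted p = 0.029) and was at 0 in all 3 libraries of C57BL6/J animal 1, and it did not pass without animal 1, 2 or 3 (0.25, 0.31 and 0.069). The remaining members higher in BTBR were Gm26740, Gm39469, F730311O21Rik, 9430037G07Rik, AC163635.1 and 4930455G09Rik, with differences from 18.8 to 36.8, each passing in 2 to 5 of the 8 fits without 1 animal. AC163635.1 passed the filter only through BTBR libraries. The plot of strain members by animal shows that most differences were carried by some animals of a strain and not by all.

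**Figure D5:**
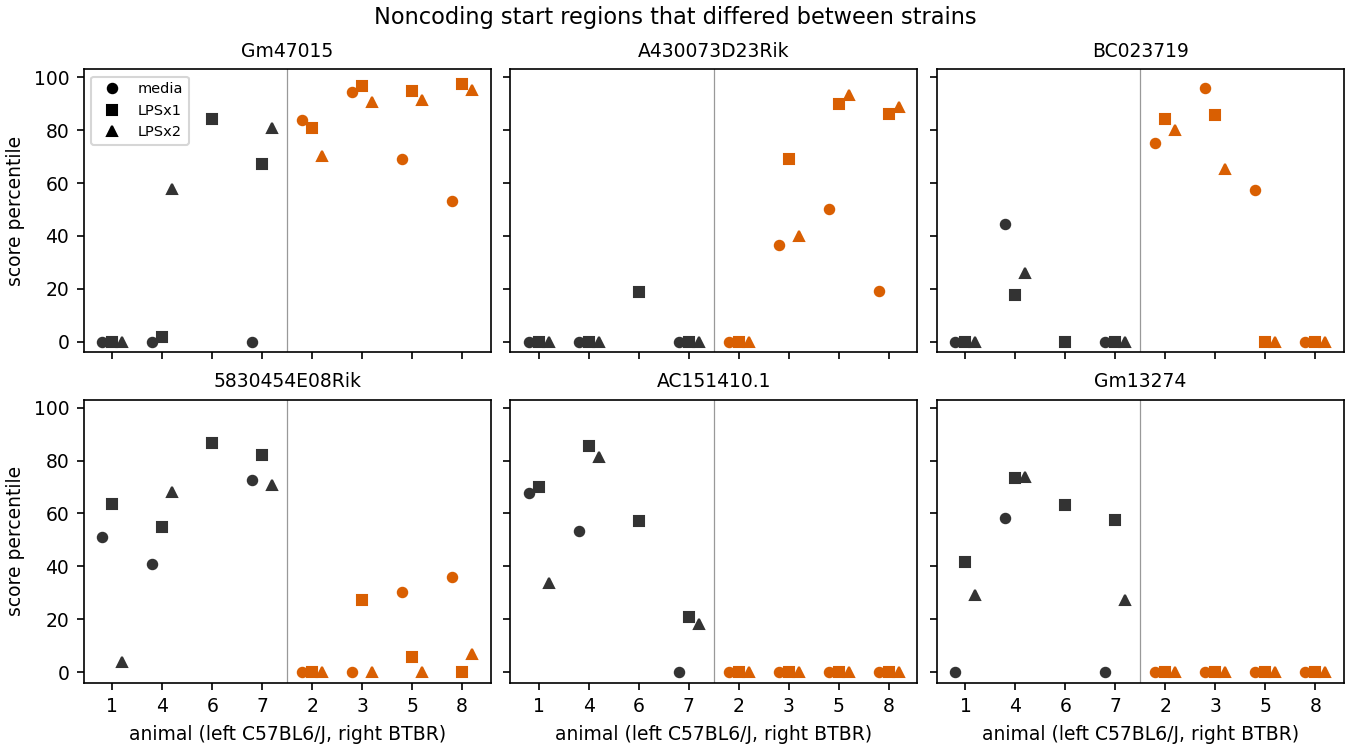
Score percentile (y axis) of 6 noncoding start regions by animal (x axis, C57BL6/J left and BTBR right), with symbols for media, LPSx1 and LPSx2. AC151410.1 and Gm13274 are at 0 in all 12 BTBR libraries, and Gm47015 is above 50 in all of them.

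The strains' LPS responses were compared by the interaction term. For LPSx1 no member passed in limma (0 of 511, background 0% higher and 0.00394% lower, 36 members, or 7.05%, at an unadjusted p under 0.05, against 9.12% of all regions). For LPSx2, 1 member passed, against 0.00787% higher over all regions. This was AC132957.1 (chr19:45058275-45058810, lincRNA near Sfxn3, which encodes a mitochondrial serine transporter). In media it had 81.2, 55.9 and 74.9 in C57BL6/J animals 1, 4 and 7, and 0, 3.15, 0 and 0 in BTBR animals 2, 3, 5 and 8. After LPSx1 its highest value was 7.07 and after LPSx2 16.9. Only C57BL6/J media libraries were high, and every LPS library of both strains was low. The interaction was 74.1 (SE 13.8, limma adjusted p = 0.041), and the fall was in C57BL6/J. BTBR media libraries were already at or near 0, where no fall could show. A different response to LPS and a strain difference in media therefore cannot be told apart here. In whole lists AC132957.1 was in 6 of 7 media, 5 of 8 LPSx1 and 4 of 7 LPSx2 libraries. It did not pass without animal 1, 2, 3, 5, 7 or 8 (0.093 to 0.3). No member of the 4 lists of noncoding genes was called between strains.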

How the data were processed

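ATAC-seq peak lists of 24 libraries were analysed. HOMER peaks on mm10 came 1 list per library, per the submitters' processing notes, which also name Trimmomatic 0.38, Picard 2.18.4, SAMtools 1.8 and bedtools; the aligner is not given in the sources used here. The authors deposited a score with every peak, on an unstated scale, which served here only for ranking inside 1 list. In 7 lists, 66.7% to 87.4% of peaks overlapped another, and overlapping peaks were collapsed to the highest-scoring one. They came from animal 1 (all 3 treatments) and from animals 3 and 4 (media, LPSx2). The media (299 peaks) and LPSx2 lists of animal 6 fell under 5000 peaks and were left out.

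Start sites were those of GENCODE M21. Percentiles of regions in at least 4 limited lists were fitted with limma 3.58.1 (R 4.3.3, trend and robust, statmod 1.5.0) on treatment by strain with lane as covariate, and for strains with animal as random effect (consensus correlation -0.0346). Adjustment was by Benjamini-Hochberg over all 25405 regions, with a threshold of 0.05. Tables were made with Python 3.11.15, pandas 2.3.3 and numpy 2.4.6. The fit was tested on simulated data. The 3 libraries of an animal share its replicate number, so the numbers pair them by design. After group alone, their residual correlations were 0.0594 to 0.622, and after group and lane -0.365 to 0.159. Each lane held 1 animal of each strain, so the lane term takes up part of what an animal's libraries share. The second range therefore cannot show that pairing is absent. Named members were the 10 with the smallest adjusted p per direction and comparison (3 by unadjusted p where fewer than 3 passed), the 10 highest-ranked ones present in every list, those at genes of the 4 noncoding lists (immune, small RNA hosts, opposite-strand, imprinted) and tested neighbours of the 5 coding gene lists. One member of the neighbour lists is not reported here. The pairs at Gm11613 and Gm41442 were named after their values were seen. The members and lists were chosen with earlier results of these data known. Alternatives covered present or absent calls, the filter, overlap, list length, lane, duplicates, the replicate block, the TSS window and leaving out each animal.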

Additional observations from a re-analysis of the deposited data

Results flagged for a closer look

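In 26 of 138 treatment groups over 45 named regions, 1 library stood apart from the rest, and in 7 of these a single library was above 0. Chance flags about 1 in 20 groups where values are normally distributed, which percentiles with many zeros are not, so 26 is not read as an excess. For regions that responded to LPS, the values were 14.7 (Gm34643, media, animal 4), 71.7 (Gm34643, LPSx2, animal 2), 6.52 (4930580E04Rik, LPSx1, animal 8) and 0 (Gm15591, LPSx2, animal 2). The rest of these were LPSx2 libraries except as said: 59.2 (Neat1, animal 3), 57.8 (2310002F09Rik, animal 4), 43.1 (2810405F17Rik, animal 3), 34.2 (Gm2885, animal 5), 40.4 (4930471E19Rik, animal 2), 10.5 (Malat1, animal 5), 39.4 (Gm15564, animal 8), and for AC132957.1 7.07 (LPSx1, animal 6) and 16.9 (animal 8).

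Among regions that differed between strains, animal 1 stood apart at Gm47015 (0, LPSx2), at the downstream region of 4932412D23Rik (0, media) and at 9430037G07Rik (5.26 in media, 24.7 after LPSx2). Animal 4 did so at AC151410.1 (81.3, LPSx2), Gm13274 (58.5 in media, 73.8 after LPSx2) and Gm15261 (47.5, media). Other values were 52.8 (F730311O21Rik, LPSx1, animal 2), 30.3 and 50.4 (AC163635.1, media of animal 5 and LPSx1 of animal 3), and 48.9 and 40.0 (4930455G09Rik, media and LPSx2 of animal 3). The LPSx2 response of AC132957.1 differed between strains by 74.1 percentile points (limma adjusted p = 0.041). Its BTBR media values were at or near 0, so no fall could show in BTBR.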

How the results depend on the processing

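Counts of called members depended on the fit. For LPSx1 the 97 calls became 33 with present or absent in place of the percentile, 58 with no filter, 46 with the stronger 50% of each list, 62 with whole lists, 24 with no lane term, 28 without the duplicated lists, 51 in lanes 1 and 2, 44 in lanes 3 and 4 and 20 by an animal by animal rule. For LPSx2 the 123 calls became, in the same order, 37, 68, 55, 59, 30, 24, 53, 49 and 23. The numbers tested changed too, from 281 members (stronger 50%) to 1199 (whole lists). For LPSx1, 4.24% of all regions were higher and 3.19% lower by present or absent (members 3.33% and 3.13%). With no lane term they were 2.74% and 2.41% (2.74% and 1.96%), and without duplicated lists 3.36% and 2.23% (5.61% and 1.22%). For LPSx2 the same fits gave 4.64% and 3.47% (2.94% and 4.31%), 3.1% and 2.74% (3.72% and 2.15%), and 2.28% and 1.46% (4.63% and 1.22%). With the replicate block the calls were 85 and 117, and the block moved no other count by more than 1.5 times. Leaving out 1 animal gave 55 (without animal 4) to 96 and 63 (without animal 4) to 131. LPSx2 against LPSx1 gave 0 in every fit. The 30 strain calls became 16 (present or absent), 9 (stronger 50%), 0 (whole lists), 0 (no lane term), 10 (no duplicated lists), 46 (lanes 1 and 2), 5 (lanes 3 and 4), 1 (1 mean per animal) and 47 (also processed transcripts of coding genes), and 15 (without animal 3) to 52 (without animal 7). Strain shares over all regions moved as well, to 0.921% and 1.55% by present or absent (members 0.978% and 2.15%). In lanes 1 and 2 they were 3.78% and 3.53% (members 4.78% and 4.78%). The consensus correlation was 0.579 with whole lists and 0.374 with no lane term. The interaction for LPSx1 had 2 calls by present or absent, 1 with no filter and 0 to 1 without 1 animal. The 1 interaction call for LPSx2 became 2 by present or absent, and 0 with a larger required overlap, the stronger 50%, whole lists, no lane term, no duplicated lists or lanes 3 and 4, and 0 to 1 without 1 animal. The 2635 members became 1651 within 500 bp, 4380 within 2 kb and 4382 with processed transcripts of coding genes. Of the values of named regions under alternatives, 784 kept direction and call, 278 lost the call and 2 reversed. Both reversals were 4930555B11Rik between strains (3.20 without the duplicated lists, 3.76 in lanes 3 and 4). The causes were not tested. Depth is unknown beyond list length, so absence from a list is no proof of closed chromatin.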

Other observations

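The lists left out for their length also held noncoding start regions. The media list of animal 6 had 3 among 299 peaks (1.00%), at Gm11399, Gm15564 and Gm20528. Its LPSx2 list had 48 among 1877 (2.56%), including 3830432H09Rik, Kcnq1ot1 and Dancr.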
